A study of Mus musculus with 16 samples.

Results

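Aminoacyl-tRNA synthetases were examined in bone marrow CD8+ T cells of mice with bone marrow failure (BMF), some of them given baricitinib (BAR), which inhibits the Janus kinases JAK1 and JAK2. The genes were taken by name alone: a symbol of 1 capital letter followed by ars, arsa, arsb, ars1 or ars2, plus Eprs. This gave 37 of the 24394 genes in the deposited count table, of which 20 encode cytosolic forms and 17, with symbols ending in 2, encode mitochondrial forms. All 37 passed the filter on low counts, as did 14862 genes in all. There were 4 groups: BAR day 10 (5 libraries), BMF day 10 (5 libraries), BAR day 14 (3 libraries) and BMF day 14 (3 libraries), with days counted from the induction of BMF. Both arms carried BMF, and no group without it was analysed here. The sources used here do not give the drug's dose and schedule, the way BMF was induced, or the strain, sex and age of the mice. The cells were described as pooled, with no word on whether each library had its own animals. The p-values therefore measure the spread between libraries, which may be technical.

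Each aminoacyl-tRNA synthetase joins 1 amino acid to its matching transfer RNAs, the step that fixes the reading of the genetic code. The cytosolic enzymes serve translation of nuclear messages, and several of them sit in a multi-synthetase complex with scaffold proteins. Mitochondria use a separate set, encoded in the nucleus, to translate the few messages of the mitochondrial genome. Gars and Kars supply both compartments from a single gene and were counted as cytosolic, and Eprs carries the glutamate and the proline enzyme in a single protein. Many cytosolic synthetase genes are known targets of ATF4, the transcription factor of the amino acid response, and the tryptophan enzyme gene Wars is known, first from human cells, as an interferon-gamma-induced gene. T cells raise protein synthesis strongly when they are activated, which makes charging of transfer RNA a demand of that state.

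The libraries held 26134894 to 58823116 counts each. The CD8 T cell markers Cd8a, Cd8b1, Cd3d, Cd3e and Cd3g were present in all 16 libraries, with a summed level of 3846 to 7290.1 CPM, a gene's counts relative to the TMM-scaled total of its library. At day 10 the sum was 3846 to 5537 CPM in BAR and 4454 to 5519 CPM in BMF, and at day 14 it was 4827 to 5445 CPM in BAR and 5972 to 7290.1 CPM in BMF, without overlap. Other markers were present too and moved with the groups. The sum of 8 neutrophil markers was 37108 to 48647 CPM in BAR day 14 libraries, against 2643 to 20999 CPM in BMF day 14 libraries. At day 10 it was 4381 to 12609 CPM in BAR and 2447 to 9032 CPM in BMF. The sum of 8 B and plasma cell markers was 28.4 to 287 CPM in BAR day 10 libraries, against 10.3 to 19.6 CPM in BMF day 10 libraries. The 45S ribosomal RNA gene Rn45s took 1.22% to 1.43% of counts in BAR day 10 libraries, against 1.15% to 5.81% in BMF day 10 libraries. In bulk RNA, fewer cells of a type and less RNA per cell cannot be told apart.

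The promoters of 9 members are shown because these genes changed with the drug (Farsa, Mars, Yars, Tars2, Yars2) or carry the ATF4 motif (Aars, Gars, Iars, Tars and Yars). The letters are 150 bases before to 30 bases after the annotated start, from RefSeq on GRCm38.p6, written 5′ to 3′ along the gene. Capitals mark the amino acid response element, searched as TGATGNAA on both strands, so that it reads TTNCATCA where it lies on the other strand.
Aars: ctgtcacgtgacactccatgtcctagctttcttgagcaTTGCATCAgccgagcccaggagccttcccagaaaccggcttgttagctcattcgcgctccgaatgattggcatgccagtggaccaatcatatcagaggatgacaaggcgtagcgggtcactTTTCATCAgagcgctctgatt
Gars: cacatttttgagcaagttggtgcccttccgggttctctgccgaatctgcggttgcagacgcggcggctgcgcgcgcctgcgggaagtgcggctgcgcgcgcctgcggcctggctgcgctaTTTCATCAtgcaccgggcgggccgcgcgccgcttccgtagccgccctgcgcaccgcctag
Iars: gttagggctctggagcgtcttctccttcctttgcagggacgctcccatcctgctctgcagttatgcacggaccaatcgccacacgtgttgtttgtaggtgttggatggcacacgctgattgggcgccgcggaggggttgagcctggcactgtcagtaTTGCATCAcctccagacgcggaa
Tars: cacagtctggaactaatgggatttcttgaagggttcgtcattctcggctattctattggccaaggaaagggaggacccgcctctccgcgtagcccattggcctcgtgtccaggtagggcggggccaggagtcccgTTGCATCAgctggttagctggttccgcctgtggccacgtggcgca
Yars: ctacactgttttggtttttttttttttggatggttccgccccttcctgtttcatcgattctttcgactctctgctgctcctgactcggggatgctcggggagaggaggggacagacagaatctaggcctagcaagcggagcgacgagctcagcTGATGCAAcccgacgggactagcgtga
Farsa: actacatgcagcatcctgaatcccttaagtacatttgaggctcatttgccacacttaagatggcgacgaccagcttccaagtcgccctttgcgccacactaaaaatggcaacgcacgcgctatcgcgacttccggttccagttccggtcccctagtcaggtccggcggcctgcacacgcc
Mars: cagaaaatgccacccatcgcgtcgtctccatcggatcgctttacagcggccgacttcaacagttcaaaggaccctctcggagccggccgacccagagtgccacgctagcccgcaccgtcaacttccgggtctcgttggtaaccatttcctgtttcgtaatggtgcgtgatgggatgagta
Tars2: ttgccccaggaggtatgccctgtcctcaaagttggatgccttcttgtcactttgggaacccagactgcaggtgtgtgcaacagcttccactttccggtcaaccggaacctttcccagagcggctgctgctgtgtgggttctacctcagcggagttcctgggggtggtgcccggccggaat
Yars2: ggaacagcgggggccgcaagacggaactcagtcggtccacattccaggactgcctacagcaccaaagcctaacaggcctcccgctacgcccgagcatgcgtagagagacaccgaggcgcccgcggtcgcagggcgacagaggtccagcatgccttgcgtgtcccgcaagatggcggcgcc
The windows lie at chr8:111033692-111033871, plus strand for Aars, chr6:55037851-55038030, plus strand for Gars, chr13:49681980-49682159, plus strand for Iars, chr15:11399629-11399808, minus strand for Tars and chr4:129189753-129189932, plus strand for Yars. They lie at chr8:84856836-84857015, plus strand for Farsa, chr10:127311757-127311936, minus strand for Mars, chr3:95754948-95755127, minus strand for Tars2 and chr16:16302815-16302994, plus strand for Yars2.

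RefSeq promoters, taken from 250 bases before to 50 after the start, were matched for 27 of the 37 genes (Mars under the symbol Mars1). Among those not matched were Cars, Hars, Lars, Nars, Rars, Vars and Wars. The amino acid response element occurred in 5 of 13 cytosolic promoters, in 0 of 14 mitochondrial ones and in 3.97% of all 32851 promoters of that length. Aars held it at 2 places, 1 before and 1 after its start. The E-box CACGTG, which MYC and related factors bind, occurred in 4 of 13 cytosolic and 1 of 14 mitochondrial promoters, against 7.15% of all. The interferon-gamma activated site TTCNNNGAA, a STAT motif, occurred in 2 of 13 and 1 of 14, against 8.3% of all. The interferon-stimulated response element occurred in 1 of 13 and 0 of 14, against 3.44% of all. These are matches of letters on both strands, and a match is not evidence of binding. Overlaps between the 4 motifs were not removed.

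Cytosolic forms were the more abundant class. Per kilobase of messenger RNA, the mean level over all libraries had a median of 43.5 CPM per kb over the 20 cytosolic genes (range 12.3 to 104.5) and of 8.14 over the 16 mitochondrial genes other than Lars2 (range 0.676 to 26.1). With the length of all exons in place of the longest protein-coding transcript, the medians were 29.4 and 4.18. The highest cytosolic levels per kb were those of Dars (105), Nars (95.3), Gars (90.4) and Kars (90), the enzymes of aspartate, asparagine, glycine and lysine. The lowest was that of Cars (12.3), the cysteine enzyme. Among mitochondrial forms Rars2, the arginine enzyme, was highest at 26.1 CPM per kb, and Mars2, the methionine enzyme, lowest at 0.676. Mars2 is annotated with a transcript of 11294 bases, and in plain CPM Ears2 had a lower mean than Mars2 in each of the 4 groups.

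Within amino acids, the cytosolic form exceeded its mitochondrial counterpart per kb in 16 of 16 pairs, Lars2 left out and both phenylalanine subunits set against Fars2. The ratio ran from 1.22 for Cars over Cars2 to 46 for Mars over Mars2. Asparagine (26.4) and tryptophan (21.2) had the next largest ratios. The cysteine, isoleucine (1.58), phenylalanine (2.09 for Farsa) and arginine (2.28) pairs lay closest together. Because each ratio depends on transcript length, that of Yars over Yars2 was 2.85 with the longest transcript and 1.57 with all exons. With all exons Cars over Cars2 was 2.27, Yars over Yars2 was the closest pair and Mars over Mars2 was 39.8.

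**Figure D1:**
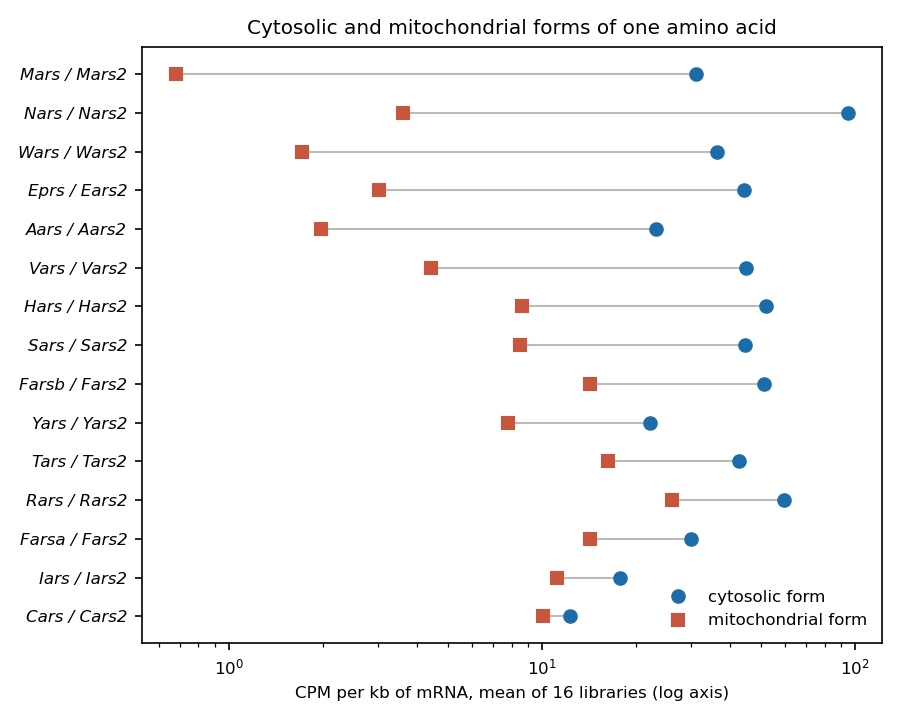
Mean level of 15 synthetase pairs over 16 libraries, in CPM per kb of messenger RNA on a log axis, with the cytosolic form as a circle and the mitochondrial form as a square. In all 15 pairs drawn the cytosolic form is higher, by 1.22 times for Cars and Cars2 and 46 times for Mars and Mars2.

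The class totals varied little between groups, though at day 14 both were higher in BAR than in BMF without overlap. The ranges there were 2757 to 2857 against 2608 to 2685 CPM for cytosolic and 395 to 403 against 353 to 374 CPM for mitochondrial genes. Of all single genes tested, 43.3% also showed no overlap at day 14. The 20 cytosolic genes summed to 2799.5 ± 194 CPM in BAR day 10 libraries and 2638 ± 125 in BMF day 10 libraries (SD, n = 5 each). At day 14 they summed to 2819.7 ± 54.9 CPM in BAR and 2656 ± 42.0 in BMF (SD, n = 3 each). The 16 mitochondrial genes summed to 402 ± 19.3 CPM in BAR day 10 and 378 ± 24.1 in BMF day 10, and to 397 ± 4.41 CPM in BAR day 14 and 367 ± 11.9 in BMF day 14. The cytosolic sum was 6.96 ± 0.283 times the mitochondrial one in BAR day 10 and 6.99 ± 0.184 times in BMF day 10. It was 7.09 ± 0.128 times in BAR day 14 and 7.24 ± 0.122 times in BMF day 14. Single members were also steady within groups: the median coefficient of variation between libraries was 3.68% to 7.56% over cytosolic genes and 6.71% to 11% over mitochondrial ones, across the 4 groups.

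At day 10, 5 cytosolic synthetases rose with BAR: Mars, Wars, Cars, Farsa and Yars, which charge methionine, tryptophan, cysteine, phenylalanine (as the alpha subunit) and tyrosine. One mitochondrial form, Yars2, rose as well, so tyrosine was the 1 amino acid for which both forms passed the test. No synthetase other than Lars2 fell. The 5 of 20 are 25% of the cytosolic genes and the 1 of 16 is 6.25% of the mitochondrial ones, against 6.49% of all genes called higher, 7.94% called lower and 14.4% called in either direction (edgeR quasi-likelihood test, adjusted p under 0.05). The median log2 fold change was 0.09 over the cytosolic and 0.10 over the mitochondrial genes, against 0.00 over all genes tested.

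Mars (chr10:127296221-127311786, mm10) had 107, 87.4, 98.1, 111 and 95.1 CPM in BAR day 10 libraries, against 75.3, 75, 78, 72.5 and 97 CPM in BMF day 10 libraries (log2 fold change 0.33, SE 0.0835, adjusted p = 0.0168). Its BMF replicate 5 stood apart from the other BMF libraries and lay among the BAR values, so the groups overlapped. Wars (chr12:108860030-108894174) had 114, 106, 103, 116 and 103 CPM in BAR day 10 libraries, against 84.4, 88, 87.3, 80.4 and 112 CPM in BMF day 10 libraries (log2 fold change 0.26, SE 0.0798, adjusted p = 0.0373). Here too BMF replicate 5 was the exception: the other 4 BMF libraries lay below all 5 BAR libraries. Cars (chr7:143557230-143600090) had 46, 41.2, 46.8, 48 and 44.2 CPM in BAR day 10 libraries, against 36.4, 34.4, 41.7, 34.9 and 43.7 CPM in BMF day 10 libraries (log2 fold change 0.24, SE 0.0795, adjusted p = 0.0483). BMF replicates 3 and 5 exceeded the lowest BAR library. Farsa (chr8:84856989-84869257) had 65, 57.1, 66.9, 61.9 and 60.8 CPM in BAR day 10 libraries, against 53.6, 50.7, 53.1, 47.5 and 61 CPM in BMF day 10 libraries (log2 fold change 0.23, SE 0.0727, adjusted p = 0.0428). Only BMF replicate 5 reached the BAR range. Yars (chr4:129189760-129219607) had 70.3, 65.2, 74.9, 73.7 and 66.3 CPM in BAR day 10 libraries, against 57.9, 56.5, 59.2, 59.4 and 66.2 CPM in BMF day 10 libraries (log2 fold change 0.23, SE 0.0642, adjusted p = 0.0261). Its BMF replicate 5 again lay inside the BAR range.

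Yars2 (chr16:16302965-16309640) had 28.6, 23.4, 27.2, 29.1 and 27.5 CPM in BAR day 10 libraries, against 19.4, 20.3, 21, 23.6 and 23.5 CPM in BMF day 10 libraries (log2 fold change 0.33, SE 0.088, adjusted p = 0.0198). BMF replicates 4 and 5 lay just above the lowest BAR library. The partners of the other called genes did not pass: Mars2 had a log2 fold change of 0.14 (adjusted p = 0.444), Wars2 of -0.16 (adjusted p = 0.351), Cars2 of -0.06 (adjusted p = 0.64) and Fars2 of 0.30 (adjusted p = 0.0736). Farsb, the beta subunit of the cytosolic phenylalanine enzyme that works only together with Farsa, had 0.13 (adjusted p = 0.325). The 15 cytosolic genes that did not pass had log2 fold changes of -0.06 to 0.19, and the 15 mitochondrial ones -0.17 to 0.30. Lars2 apart, no gene of either class had groups without overlap at day 10, against 7.91% of all genes tested.

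The day 10 calls were not kept in 2 other fits. With each library's Rn45s share as a covariate, or without BMF replicates 1, 2 and 3, which were richest in Rn45s, 0 of 20 cytosolic and 0 of 16 mitochondrial genes were called, with Mars at a log2 fold change of 0.15 (adjusted p = 0.642) and 0.23 (adjusted p = 0.428). The log2 fold changes were 0.22 and 0.19 for Farsa, 0.12 and 0.19 for Cars, 0.11 and 0.15 for Yars, 0.08 and 0.16 for Wars, and 0.25 and 0.20 for Yars2, all above 0. Only 86 and 111 genes in the whole table were called in these fits, against 2145 in the fit above. With 1 library left out, the cytosolic count was 1 without BMF day 10 replicate 1, 2, 3 or 4 or BAR day 10 replicate 4; 2 without BAR day 10 replicate 1, 3 or 5 or BMF day 14 replicate 2; 3 without BAR day 14 replicate 3; and 8 without BMF day 10 replicate 5. Mars kept its call in all 16 such fits (adjusted p up to 0.0492), and Yars2 in all but the fit without BMF day 10 replicate 3 (adjusted p = 0.0503). The mitochondrial count was 0 without that library, 2 without BMF day 10 replicate 2 or BAR day 10 replicate 3, and 5 without BMF day 10 replicate 5. Earlier results of these data divide the day 10 libraries across the arms, with BMF replicates 1 to 3 and BAR replicates 2 and 3 on one side. Within the 2 sides the BAR minus BMF difference in log2 CPM was 0.28 and 0.31 for Mars, 0.27 and 0.22 for Wars, 0.23 and 0.24 for Cars, 0.24 and 0.22 for Farsa, 0.27 and 0.16 for Yars, and 0.32 and 0.27 for Yars2. The first side holds 2 BAR and 3 BMF libraries, the other 3 and 2. Rn45s itself differed by -2.22 and -0.50 within them, so this division leaves the Rn45s difference between the arms in place. At day 10, 7 of 8 B and plasma cell markers, 4 of 5 erythroid markers tested (median log2 fold change 1.51) and 5 of 9 monocyte and macrophage markers (median 0.66, with 1 called lower) were called higher in BAR, and 0 of 8 neutrophil markers were called. In a fit with the neutrophil sum as a covariate Mars, Yars and Yars2 stayed called, and the part of the other marker sets was not tested.

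**Figure D2:**
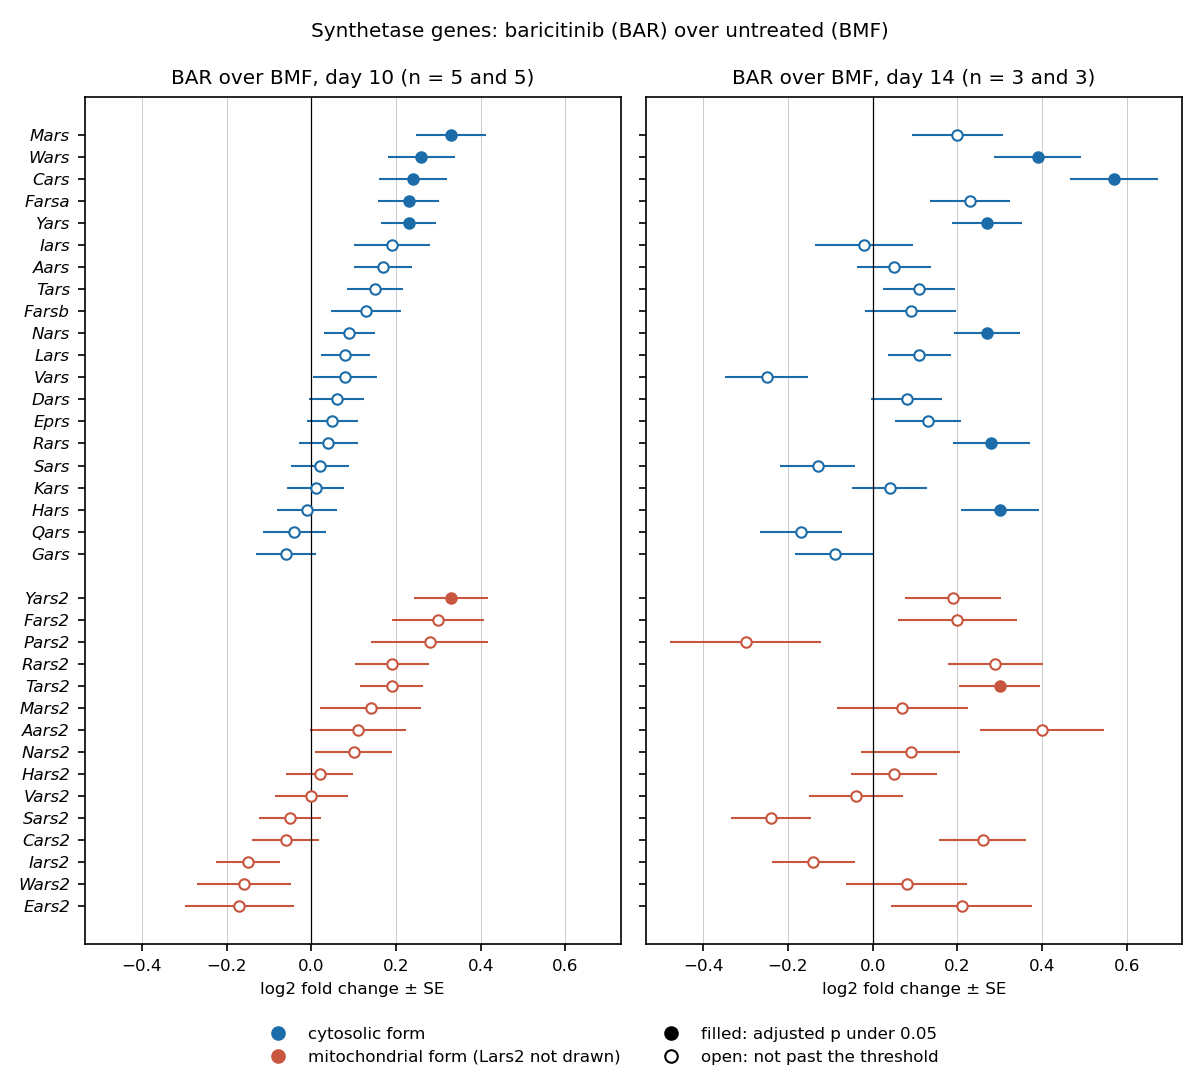
Log2 fold change of BAR over BMF with its standard error for 35 synthetase genes at day 10 and day 14, cytosolic forms in blue and mitochondrial forms in red, filled where adjusted p was under 0.05. At day 10 there are 5 filled cytosolic points and 1 mitochondrial one, at day 14 there are 6 and 1, and all filled points lie to the right of 0.

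At day 14, 6 cytosolic synthetases rose with BAR: Cars, Wars, Nars, Yars, Hars and Rars, the enzymes of cysteine, tryptophan, asparagine, tyrosine, histidine and arginine. Tars2, the mitochondrial threonine enzyme, rose too, and no synthetase fell. The 6 of 20 are 30% of the cytosolic genes and the 1 of 16 is 6.25% of the mitochondrial ones, against 12.9% of all genes called higher, 12.2% called lower and 25.2% called in either direction. Medians of log2 fold changes were 0.11 over cytosolic and 0.14 over mitochondrial genes, against -0.01 over all genes. Groups did not overlap for 13 of 20 cytosolic and 6 of 16 mitochondrial genes, where 43.3% of all genes tested showed no overlap. Among these, Qars (log2 fold change -0.17), Vars (-0.25), Pars2 (-0.30) and Sars2 (-0.24) lay lower in BAR, without passing the test.

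Cars had 41.3, 46 and 41.9 CPM in BAR day 14 libraries, against 26.3, 28.9 and 31.6 CPM in BMF day 14 libraries (log2 fold change 0.57, SE 0.103, adjusted p = 0.000739). The lowest BAR library exceeded the highest BMF library by more than the SD within either arm (2.55 in BAR and 2.70 in BMF). Wars had 113, 126 and 129 CPM in BAR day 14 libraries, against 94.2, 91.5 and 94.8 CPM in BMF day 14 libraries (log2 fold change 0.39, SE 0.103, adjusted p = 0.0101). The BMF libraries lay close together and below every BAR library. Nars (chr18:64499647-64516652) had 248, 292 and 278 CPM in BAR day 14 libraries, against 227, 217 and 237 CPM in BMF day 14 libraries (log2 fold change 0.27, SE 0.0787, adjusted p = 0.0194). BAR replicate 1 was the nearest to the BMF range, without reaching it. Yars had 65, 74 and 70.9 CPM in BAR day 14 libraries, against 57.1, 56 and 60.6 CPM in BMF day 14 libraries (log2 fold change 0.27, SE 0.0829, adjusted p = 0.0225). The same BAR replicate was again the lowest of its arm.

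Hars (chr18:36766528-36783205) had 103, 103 and 103 CPM in BAR day 14 libraries, against 85.8, 85.3 and 79.6 CPM in BMF day 14 libraries (log2 fold change 0.30, SE 0.0923, adjusted p = 0.0252). The 3 BAR values were nearly equal. Hars and its mitochondrial partner Hars2 lie head to head on opposite strands, and their annotated starts overlap by 198 bases. Where counting ignores strand, reads there cannot be assigned to one of them. Of the other genes called with the drug, Mars overlaps Ddit3 by 68 bases, Wars overlaps Wdr25 by 544 and Yars overlaps C77080 by 30, each on the opposite strand. Cars overlaps the microRNA gene Mir7064 by 89 bases and Farsa overlaps Mir7069 by 62, both on the same strand. Only overlaps with genes in the count table are listed. Hars2 had a log2 fold change of 0.05 (adjusted p = 0.743). Rars, a member of the multi-synthetase complex, had 114, 148 and 130.4 CPM in BAR day 14 libraries, against 107, 107 and 109.7 CPM in BMF day 14 libraries (log2 fold change 0.28, SE 0.0904, adjusted p = 0.0308). BAR replicate 2 was far above BAR replicate 1, which came close to the BMF libraries.

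Tars2 (chr3:95739976-95760206) had 46, 60.1 and 53.3 CPM in BAR day 14 libraries, against 41.9, 43.3 and 44.7 CPM in BMF day 14 libraries (log2 fold change 0.30, SE 0.096, adjusted p = 0.031). It showed the same order of BAR libraries as Rars. Its cytosolic partner Tars had a log2 fold change of 0.11 (adjusted p = 0.351). Among mitochondrial partners of the called cytosolic genes, Cars2 had 0.26 (adjusted p = 0.0694), Rars2 0.29 (adjusted p = 0.0649), Yars2 0.19 (adjusted p = 0.238), Nars2 0.09 (adjusted p = 0.594) and Wars2 0.08 (adjusted p = 0.74). The nearest to the threshold was the mitochondrial alanine enzyme Aars2, with a log2 fold change of 0.40 (95% interval 0.12 to 0.69, adjusted p = 0.0505). At the other end lay Pars2 (-0.30), Vars (-0.25) and Sars2 (-0.24), the enzymes of proline, valine and serine, none of which passed (adjusted p = 0.226, 0.0721 and 0.0719).

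Cars and Wars stayed called in each of the 16 fits with 1 library left out (adjusted p up to 0.0068 and 0.0484). The cytosolic count was 2 without BAR day 14 replicate 2 or 3 or BMF day 14 replicate 1 or 2. In these fits 2119 to 2898 genes were called in all, against 3738 with every library. The mitochondrial count was 0 without BAR day 14 replicate 2 or BMF day 14 replicate 1 or 2, 2 without BAR day 14 replicate 1 or BAR day 10 replicate 3, and 4 without BMF day 10 replicate 5. The neutrophil marker sum did not overlap between the arms at day 14, nor did the sum of 9 monocyte and macrophage markers, at 3481 to 4307 CPM in BAR and 444 to 1557 CPM in BMF. The sum of 9 erythroid markers was 182 to 372 CPM in BAR and 1.30 to 6.40 CPM in BMF, with the hemoglobin genes Hba-a1, Hba-a2, Hbb-bs and Hbb-bt listed at 0 throughout. In a fit with the neutrophil sum as a covariate, Cars (log2 fold change 0.50, adjusted p = 0.0312) and Hars (0.48, adjusted p = 0.0115) stayed called, and Wars (0.37, adjusted p = 0.127), Nars (0.27, adjusted p = 0.154), Yars (0.26, adjusted p = 0.197), Rars (0.34, adjusted p = 0.105) and Tars2 (0.26, adjusted p = 0.253) did not, with log2 fold changes close to those above. In that fit 973 of 14862 genes were called, against 3738 without the covariate. With the Rn45s covariate, Rars (0.20, adjusted p = 0.0931), Tars2 (0.21, adjusted p = 0.0937) and Yars (0.21, adjusted p = 0.0572) did not pass. Cars, Wars, Hars and Nars stayed called there (adjusted p up to 0.0483), as did 3166 genes in all. Without BMF day 10 replicates 1 to 3, Rars did not pass (0.28, adjusted p = 0.0537), and the other day 14 calls stayed. Singly, 0 of 8 neutrophil markers were called at day 14, and of 9 monocyte and macrophage markers 2 were called higher and 4 lower in BAR. Of the 5 CD8 T cell markers 3 were called lower in BAR at day 14 (median log2 fold change -0.39). The part of these other marker sets was not tested.

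**Figure D3:**
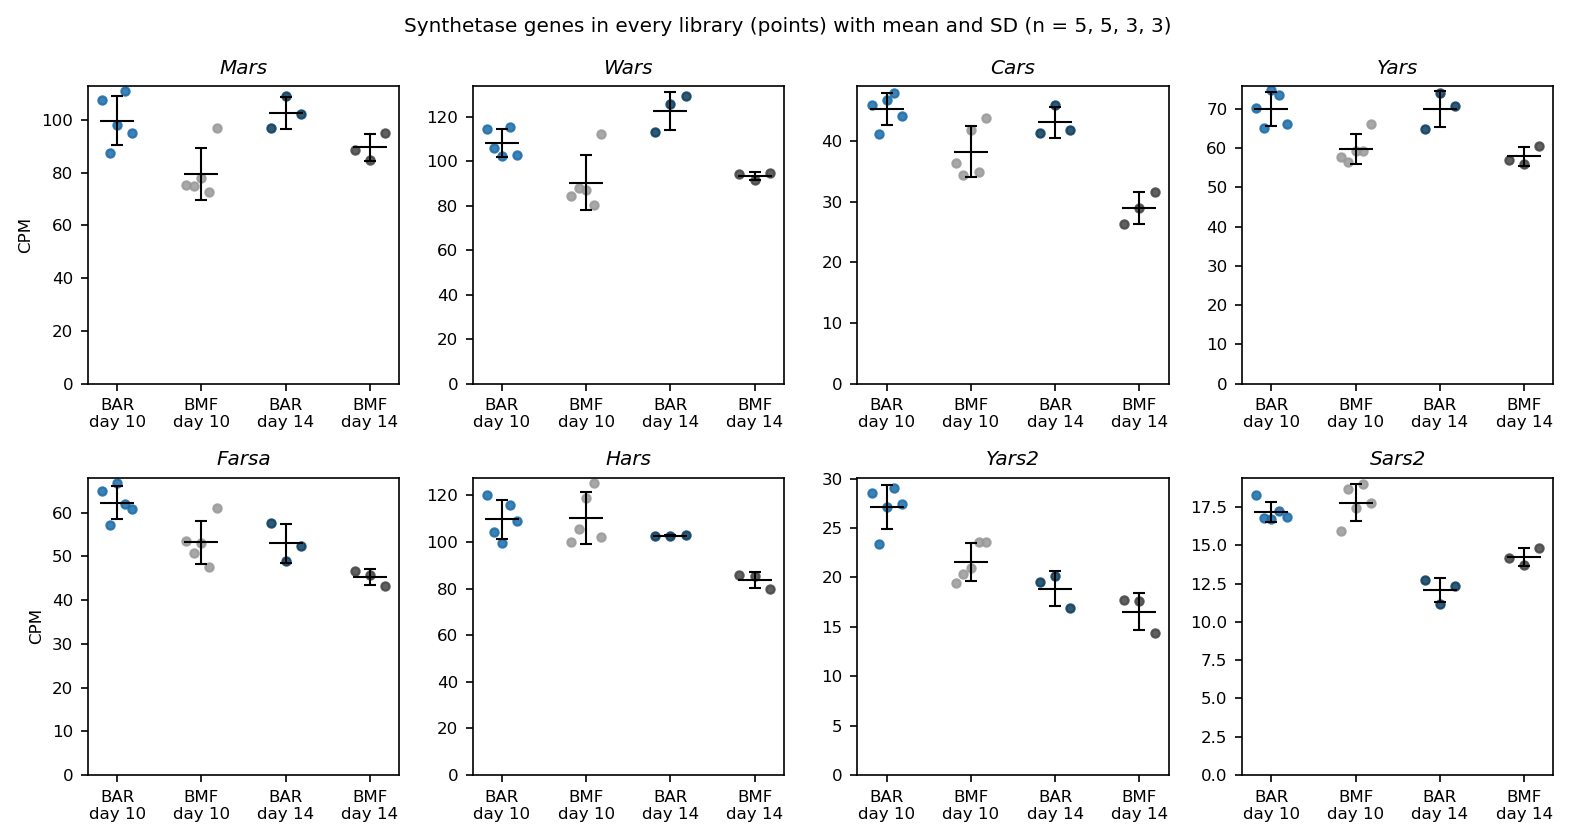
CPM of 8 synthetase genes in every library, with points for libraries and bars for mean and SD, in BAR day 10, BMF day 10, BAR day 14 and BMF day 14. Cars is lowest in the 3 BMF day 14 libraries (26.3 to 31.6 CPM), and in Mars and Wars 1 BMF day 10 library stands above the other 4.

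The drug effect was not shown to differ between the days for any synthetase. For the difference between the day 14 and the day 10 effect, edgeR called 0 of 20 cytosolic and 0 of 16 mitochondrial genes, with 4 and 2 at an unadjusted p under 0.05, against 10.3% of all genes called (5.33% with a negative difference). DESeq2 and limma voom also called 0 in both classes. Without BMF day 10 replicate 5 or BAR day 10 replicate 2, 1 gene was called in each class. Vars had a difference of -0.33 (95% interval -0.57 to -0.08, adjusted p = 0.0989), Pars2 of -0.59 (-1.03 to -0.15, adjusted p = 0.103) and Cars of 0.33 (0.08 to 0.59, adjusted p = 0.111). Hars, at -0.01 with the drug at day 10 and 0.30 at day 14, had a difference of 0.31 (0.08 to 0.53, adjusted p = 0.102). For Wars it was 0.13 (-0.12 to 0.39, adjusted p = 0.562). The Wars interval reaches as far as its drug effect at day 14. Cars, Wars and Yars were the 3 genes called higher at both days.

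The change with time was tested within each arm, on libraries that the drug comparisons also use. In BMF, 7 of 20 cytosolic genes (35%) and 6 of 16 mitochondrial genes (37.5%) differed between day 14 and day 10, against 38.5% of all genes tested, so their shares lay near the background. Of all genes, 17.6% were higher and 20.9% lower. Aars and Lars, the enzymes of alanine and leucine, rose by day 14, and Cars, Hars, Farsa, Rars and Nars fell. Fars2 and Pars2 rose, and Cars2, Yars2, Sars2 and Tars2 fell. In BAR, 2 cytosolic genes (10%) and 3 mitochondrial genes (18.8%) were called, against 39.1% of all genes (19.2% higher, 19.8% lower). Lars and Fars2 rose there as well, and Farsa, Yars2 and Sars2 fell. Cell type markers moved with time too: in BAR 7 of 8 neutrophil markers were called higher at day 14 (median log2 fold change 2.38) and 6 of 8 B and plasma cell markers lower (median -4.46), and in BMF 4 of 5 CD8 T cell markers were called higher (median 0.42) and 4 of 5 erythroid markers tested lower (median -2.89). With the neutrophil covariate the BAR counts were 1 cytosolic and 1 mitochondrial gene, and the BMF counts were 4 and 6. Over all 14862 genes, 1510 were then called in BAR and 5474 in BMF, against 5808 and 5728 without it. The part of the other marker sets was not tested.

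Lars had 106, 96.1 and 105 CPM in BMF day 14 libraries, against 82.8, 85.5, 89, 87.4 and 90.5 CPM in BMF day 10 libraries (log2 fold change 0.23, SE 0.066, adjusted p = 0.01). It had 109, 111 and 112 CPM in BAR day 14 libraries, against 96.4, 84.2, 93.6, 98.3 and 88.4 CPM in BAR day 10 libraries (log2 fold change 0.26, SE 0.0658, adjusted p = 0.00531). All day 14 values exceeded all day 10 values within each arm. Aars had 138, 143 and 140.0 CPM in BMF day 14 libraries, against 108, 116, 120.2, 123 and 135 CPM in BMF day 10 libraries (log2 fold change 0.22, SE 0.0784, adjusted p = 0.0336). In BAR the same comparison gave 0.09 (adjusted p = 0.368).

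Fars2, the mitochondrial phenylalanine enzyme, had 33.2, 32.4 and 38.2 CPM in BMF day 14 libraries, against 20.7, 28, 20.6, 22.1 and 26.6 CPM in BMF day 10 libraries (log2 fold change 0.55, SE 0.124, adjusted p = 0.00234). It had 43.9, 35.6 and 39.4 CPM in BAR day 14 libraries, against 33.7, 27.9, 23.2, 28.6 and 31.6 CPM in BAR day 10 libraries (log2 fold change 0.45, SE 0.123, adjusted p = 0.00856). The days did not overlap in either arm. The cytosolic subunit Farsa moved the other way: it had 46.8, 45.7 and 43.3 CPM in BMF day 14 libraries, below every BMF day 10 library (log2 fold change -0.23, SE 0.0848, adjusted p = 0.0367). In BAR day 14 libraries Farsa had 57.7, 48.9 and 52.4 CPM, and 1 of them lay within the BAR day 10 range (log2 fold change -0.23, SE 0.0845, adjusted p = 0.0356).

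Sars2, the mitochondrial serine enzyme, had 12.7, 11.2 and 12.4 CPM in BAR day 14 libraries, against 18.3, 16.8, 16.7, 17.2 and 16.9 CPM in BAR day 10 libraries (log2 fold change -0.51, SE 0.0856, adjusted p = 0.000235). In BMF it had 14.2, 13.7 and 14.9 CPM at day 14, against 15.9, 18.7, 17.4, 19 and 17.8 CPM at day 10 (log2 fold change -0.32, SE 0.0851, adjusted p = 0.00716). Every day 14 value was below every day 10 value of its arm. Yars2 had 19.6, 20.2 and 16.9 CPM in BAR day 14 libraries (log2 fold change -0.52, SE 0.103, adjusted p = 0.000864) and 17.7, 17.6 and 14.3 CPM in BMF day 14 libraries (log2 fold change -0.38, SE 0.103, adjusted p = 0.00768), below the day 10 values given above. Yars itself had log2 fold changes of 0.00 in BAR (adjusted p = 0.98) and -0.05 in BMF (adjusted p = 0.635).

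The other calls came from BMF alone. Cars2 had 15.3, 14.7 and 14.4 CPM in BMF day 14 libraries, against 22.5, 20.5, 23.8, 21.7 and 18.1 CPM in BMF day 10 libraries (log2 fold change -0.53, SE 0.0938, adjusted p = 0.000374). Cars gave log2 fold change -0.40, SE 0.0934, adjusted p = 0.00294, so both cysteine enzymes were lower at day 14 in BMF, and in BAR they had -0.07 (Cars, adjusted p = 0.565) and -0.20 (Cars2, adjusted p = 0.088). Hars had 85.8, 85.3 and 79.6 CPM in BMF day 14 libraries, against 100, 106, 119, 125 and 102 CPM in BMF day 10 libraries (log2 fold change -0.40, SE 0.0836, adjusted p = 0.00132). Pars2 had 10.8, 11.1 and 10.1 CPM in BMF day 14 libraries, against 7.73, 6.23, 8.88, 6.25 and 9.05 CPM in BMF day 10 libraries (log2 fold change 0.48, SE 0.157, adjusted p = 0.0226), a gene of low level. Rars (-0.23, adjusted p = 0.0321), Nars (-0.20, adjusted p = 0.034) and Tars2 (-0.24, adjusted p = 0.0326) fell as well. Whether BMF and BAR differed in these changes is the same test as above, in which no gene passed.

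In the fits with 1 library left out, Cars, Hars, Cars2, Fars2 and Sars2 kept their calls in BMF, and Lars, Sars2 and Yars2 in BAR. The BMF cytosolic count was 3 without BMF day 14 replicate 1, 2 or 3 and 4 without BMF day 10 replicate 2. The BAR cytosolic count was 1 without BAR day 10 replicate 1 or 3 or BAR day 14 replicate 2 or 3. Lars and Yars2 in BMF lost their calls without BMF day 14 replicate 3 (adjusted p = 0.0542 and 0.0574), and Fars2 in BAR without BAR day 14 replicate 1 (adjusted p = 0.0519). In BMF, Farsa lost its call in 9 of the 16 fits, Nars and Tars2 in 7, Aars in 6, Rars in 5 and Pars2 in 3, with adjusted p up to 0.162 for Nars. In BAR, Farsa lost its call in the 4 fits in which the cytosolic count was 1 (adjusted p up to 0.14).

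**Figure D4:**
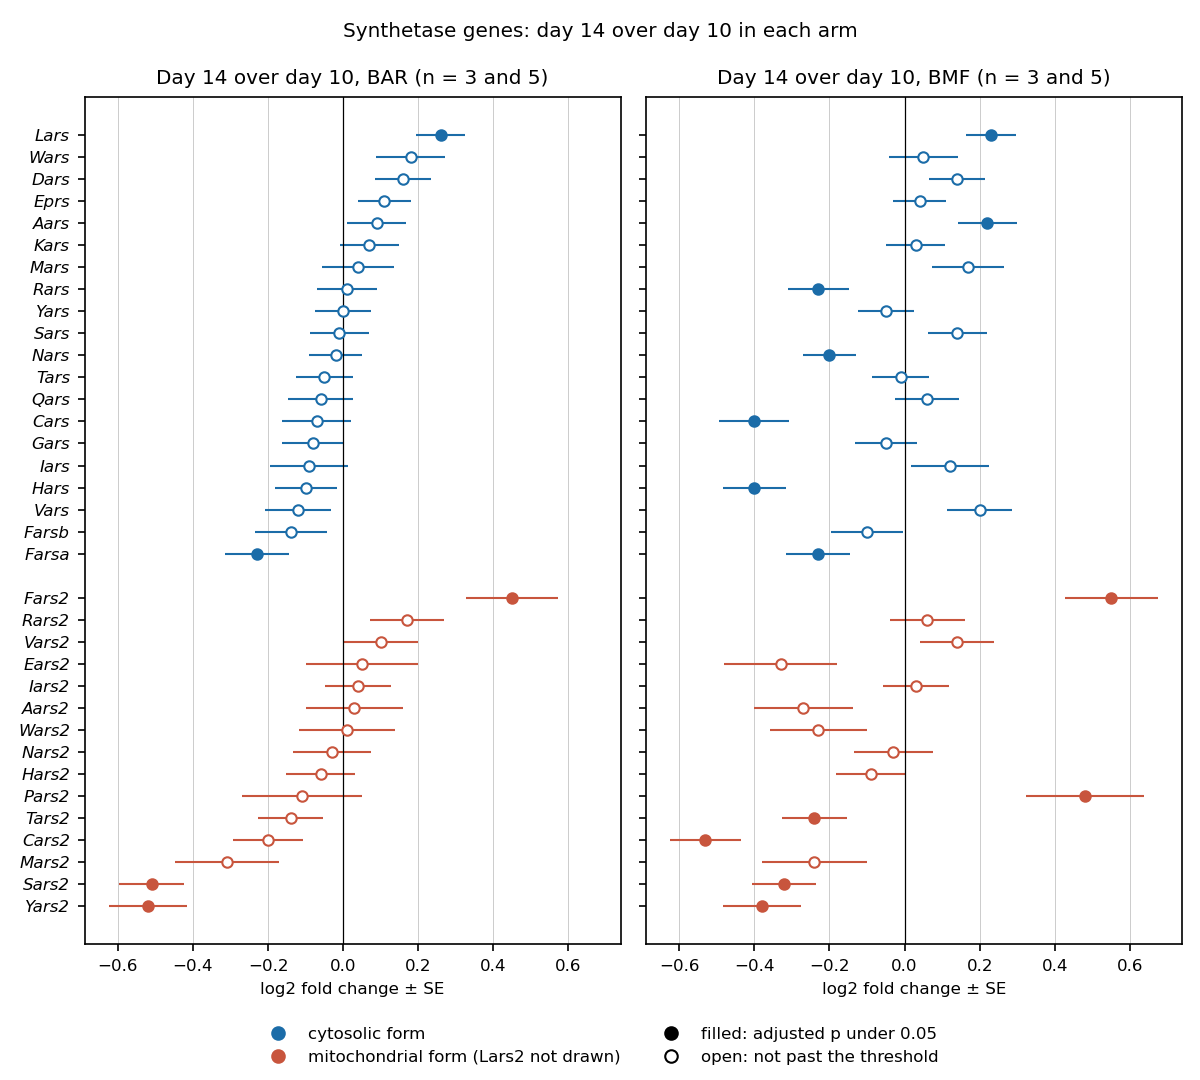
Log2 fold change of day 14 over day 10 with its standard error for 35 synthetase genes in BAR and in BMF, cytosolic forms in blue and mitochondrial forms in red, filled where adjusted p was under 0.05. Lars and Fars2 lie to the right of 0 and Farsa, Sars2 and Yars2 to the left with filled points in both panels, and BMF has 8 further filled points.

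The members that passed in none of the 5 comparisons were 10 cytosolic (Dars, Eprs, Farsb, Gars, Iars, Kars, Qars, Sars, Tars and Vars) and 10 mitochondrial, among them Aars2, Mars2, Rars2 and Wars2. Of the 5 cytosolic genes with the amino acid response element shown above, Yars was called with the drug at both days, and Aars with time in BMF. The median log2 fold change of these 5 was 0.17 at day 10 and 0.05 at day 14, against 0.06 and 0.09 over the 8 cytosolic genes whose promoters lacked it.

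Lars2, the mitochondrial leucine enzyme gene on chr9:123366927-123462666, was unlike every other member in level. It had 6848, 7582, 7684, 7043 and 6086 CPM in BAR day 10 libraries, against 36576, 35996, 60779, 26588 and 8120.2 CPM in BMF day 10 libraries. It had 10614, 7421 and 7169 CPM in BAR day 14 libraries, against 12901, 12819.8 and 8977 CPM in BMF day 14 libraries. The other 16 mitochondrial genes lay between 4.83 and 69.1 CPM in all libraries, and no cytosolic gene exceeded 296 CPM. Per kb, Lars stood at 0.0057 times the level of Lars2, the only pair in that direction.

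At day 10 Lars2 fell with BAR (log2 fold change -2.25, SE 0.38, adjusted p = 0.00319), and the groups did not overlap. At day 14 it did not pass (log2 fold change -0.46, SE 0.47, adjusted p = 0.512), and the difference between the days did not either (1.79, adjusted p = 0.0755). In BMF it was lower at day 14 than at day 10 (log2 fold change -1.54, SE 0.446, adjusted p = 0.0161), a call lost without BMF day 14 replicate 3 (adjusted p = 0.0704). In BAR the change with time was 0.25 (adjusted p = 0.658). Rn45s, the ribosomal RNA precursor gene, gave log2 fold change -1.75, SE 0.413, adjusted p = 0.0167 at day 10.

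Counts on Lars2 went with counts on Rn45s. Rn45s had 11994, 11107, 12914, 12175 and 13322 CPM in BAR day 10 libraries, against 56619, 49609, 61624, 28538 and 10967 CPM in BMF day 10 libraries. In BMF day 10, replicate 3 was highest for both genes and replicate 5 lowest, and all 5 libraries had the same order. In BAR day 10 the orders differed. Lars2 counts were 0.437 to 1.02 times the Rn45s counts over the 16 libraries, while the Rn45s share itself ran from 0.714% to 5.81%. With the Rn45s share as a covariate the day 10 log2 fold change of Lars2 was -0.86 (adjusted p = 0.202), and without BMF replicates 1 to 3 it was -1.31 (adjusted p = 0.103). How many of the reads counted as Lars2 came from its messenger RNA was not tested.

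**Figure D5:**
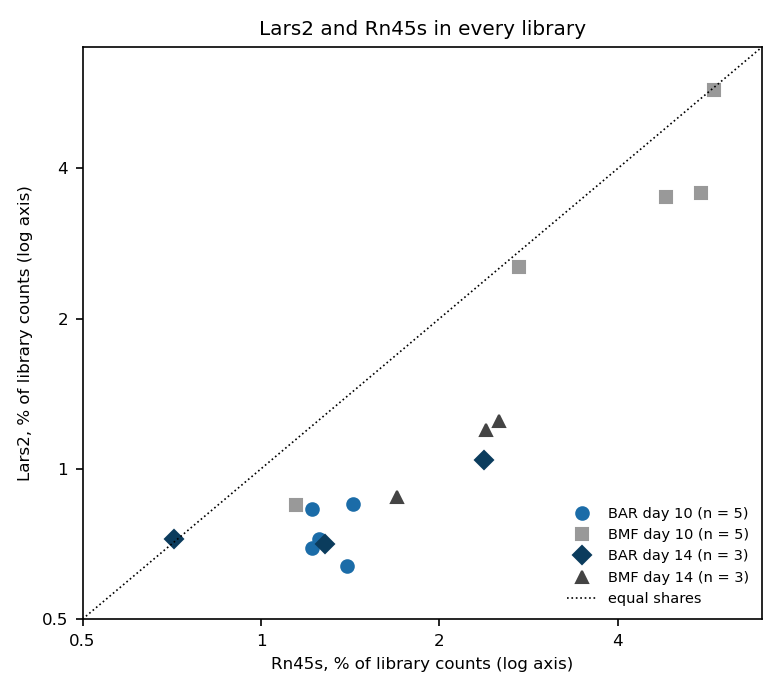
Share of a library's counts on Lars2 against that on Rn45s, both in % on log axes, for the 16 libraries in 4 groups, with a dotted line of equal shares. BMF day 10 replicates 1 to 4 lie at the upper right (Rn45s 2.73% to 5.81%, Lars2 2.54% to 5.73%), and the fifth lies among the BAR day 10 libraries.

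The genes around the synthetases were taken from 4 lists. Of 11 genes of the multi-synthetase complex, all tested, 1 was higher with BAR at day 10 (Mars) and 2 at day 14, Rars and the scaffold Eef1e1, against 6.49% and 12.9% of all genes called higher. Eef1e1 had 69.4, 76.7 and 76.1 CPM in BAR day 14 libraries, against 58, 62.1 and 54.5 CPM in BMF day 14 libraries (log2 fold change 0.35, SE 0.109, adjusted p = 0.0254). The arms did not overlap, and with the neutrophil covariate Eef1e1 passed again (0.50, adjusted p = 0.0312). With the Rn45s covariate Eef1e1 did not pass (0.30, adjusted p = 0.0649). Its call was lost without BAR day 14 replicate 2 or 3 or BMF day 14 replicate 1 or 3 (adjusted p up to 0.08). The scaffold Aimp1 was called once, lower at day 14 than at day 10 in BMF (-0.27, adjusted p = 0.0129). The list's median was 0.06 at day 10 and 0.11 at day 14.

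Of 18 partners in mitochondrial charging and translation, 1 was higher and 1 lower with BAR at day 10, against 6.49% and 7.94% of all genes. These were the elongation factor Gfm2 (0.29, adjusted p = 0.0452) and the initiation factor Mtif2 (-0.28, adjusted p = 0.0167). Gfm2 did not pass in 10 of the 16 fits with 1 library left out (adjusted p up to 0.108), and neither gene passed without BMF replicates 1 to 3 (0.05, adjusted p = 0.84, and -0.25, adjusted p = 0.28). At day 14 the transfer RNA modification gene Mto1 was higher (0.30, adjusted p = 0.0296), a call lost with the neutrophil covariate (0.29, adjusted p = 0.217) or without any 1 of the day 14 libraries other than BAR replicate 3 (adjusted p up to 0.103). With time 1 was higher and 7 lower in BMF, and 3 higher and 6 lower in BAR, where 38.5% and 39.1% of all genes were called in either direction. Qrsl1, a subunit of the enzyme that completes mitochondrial glutamine transfer RNA after Ears2 has loaded it with glutamate, fell in BAR (-0.65, adjusted p = 0.000136) and in BMF (-0.41, adjusted p = 0.00465). Mtfmt, which formylates the methionine that Mars2 loads, fell in BAR (-0.55, adjusted p = 0.000195) and in BMF (-0.29, adjusted p = 0.0158). The list's median was -0.17 in BAR and -0.22 in BMF, against -0.04 and -0.05 over all genes.

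Of 8 cytosolic elongation and release factors, 0 were higher and 2 lower with BAR at day 10, against 6.49% and 7.94% of all genes. They were Eef1b2 (-0.63, adjusted p = 0.00399) and Eef2 (-0.32, adjusted p = 0.0102), which reload elongation factor 1 and move the ribosome along the message. The list's median was -0.16, against 0.00 over all genes and 0.09 over the cytosolic synthetases. Neither gene passed with the Rn45s covariate (-0.29 for Eef1b2, adjusted p = 0.443, and -0.33 for Eef2, adjusted p = 0.187) or without BMF replicates 1 to 3 (-0.54, adjusted p = 0.153, and -0.37, adjusted p = 0.12). Eef1b2 had 488, 423, 405, 473 and 488 CPM in BAR day 10 libraries, against 639, 715, 852, 806 and 509 CPM in BMF day 10 libraries, where replicate 5 again lay nearest to the BAR libraries. At day 14 Eif5a, another elongation factor, was higher (0.47, adjusted p = 0.00989) and Eef2 lower (-0.27, adjusted p = 0.0483), and neither passed with the neutrophil covariate, at nearly the same log2 fold changes (0.46, adjusted p = 0.101, and -0.27, adjusted p = 0.238). Eef2 at day 14 lost its call in 10 of the 16 fits with 1 library left out (adjusted p up to 0.187), and Eif5a without BAR day 14 replicate 2 or BMF day 14 replicate 2 (adjusted p up to 0.0681).

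The amino acid response, the programme that induces many synthetases, was read from 20 genes. At day 10, 1 was higher with BAR (Aldh18a1, 0.29) and 3 were lower (Atf4, Ddit4 and Eif2ak4), against 6.49% of all genes called higher and 7.94% lower. Aldh18a1 (0.07, adjusted p = 0.836) and Eif2ak4 (-0.13, adjusted p = 0.775) did not pass with the Rn45s covariate, and each lost its call in 5 of the 16 fits with 1 library left out (adjusted p up to 0.0699 and 0.086). Atf4 itself had 62.1, 68.2, 58.2, 64.9 and 62.8 CPM in BAR day 10 libraries, against 162, 149.7, 167, 117 and 57.8 CPM in BMF day 10 libraries (log2 fold change -1.05, SE 0.209, adjusted p = 0.00697). BMF replicates 1 to 4 were above every BAR library, and BMF replicate 5 was below all of them. Leaving out BMF replicates 1 to 3 gave -0.48 (adjusted p = 0.264), and the Rn45s covariate -0.37 (adjusted p = 0.547). Ddit4, a stress-induced brake on the growth kinase mTORC1, had 61.6, 60.9, 47.4, 56.6 and 73 CPM in BAR day 10 libraries, against 92.2, 102, 92.8, 109.7 and 129.7 CPM in BMF day 10 libraries (log2 fold change -0.81, SE 0.119, adjusted p = 0.000535). Its groups did not overlap, and it stayed called in both of those fits (adjusted p = 0.00444 and 0.00787). At day 14, 6 were higher with BAR and 1 was lower (Ddit4, -0.77), against 12.9% and 12.2% of all genes. Asns, which makes asparagine and is a standard ATF4 target, had 84.1, 76.8 and 62.8 CPM in BAR day 14 libraries, against 24.3, 30.3 and 32.6 CPM in BMF day 14 libraries (log2 fold change 1.36, SE 0.168, adjusted p = 5.33e-05). Cebpb (1.31), Eif4ebp1 (1.75) and Pycr1 (1.51) were among the 6. Pycr1 was near the floor, at 0.973 to 1.53 CPM in BAR day 14 and 0.344 to 0.577 CPM in BMF day 14 libraries. In these libraries the sums of neutrophil and of monocyte and macrophage markers did not overlap between the arms. Singly, 0 of 8 neutrophil markers were called, and of 9 monocyte and macrophage markers 2 were called higher and 4 lower. With the neutrophil covariate Asns kept its call (1.03, adjusted p = 0.00211), and Cebpb (adjusted p = 0.0602), Eif4ebp1 (adjusted p = 0.0657) and Pycr1 (adjusted p = 0.101) did not. In the fit without covariates Atf4 had a log2 fold change of 0.46 at day 14 (adjusted p = 0.232). Its difference between days passed there (log2 fold change 1.51, SE 0.342, adjusted p = 0.0154), as did that of Asns (log2 fold change 1.06, SE 0.21, adjusted p = 0.00501). Both differences also passed with the neutrophil covariate (1.61, adjusted p = 0.0306 for Atf4, and 0.82, adjusted p = 0.017 for Asns). With the Rn45s covariate Atf4 passed at day 14 (0.81, adjusted p = 0.00873), and so did its difference between days (1.18, adjusted p = 0.0061). The Atf4 difference between days did not pass without BMF day 10 replicates 1 to 3 (0.94, adjusted p = 0.0733), where that of Asns did (1.25, adjusted p = 0.0148).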

How the data were processed

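The deposited table holds raw counts by gene symbol for 16 libraries of sorted cells, which the authors made with the SMART-Seq mRNA LP kit, per the labels' protocols. The submitters' processing notes name HISAT2 2.0.5 as aligner and mm10 as build. How reads were counted, with which annotation and strand setting, is not given in the sources used here, so reads of overlapping genes and of near-identical copies cannot be told apart.

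Of 24421 entries, 27 carried dates in place of symbols and were left out (0.234% to 0.293% of counts). No 2 libraries of a group agreed within sampling noise (26 pairs, chi-square 11.2 to 347 per degree of freedom). Counts were fitted in R 4.3.3 with edgeR 4.0.16: filter by group, TMM scaling, robust quasi-likelihood with 1 mean per group over all 16 libraries, and Benjamini-Hochberg adjustment over 14862 genes with a threshold of 0.05. The common biological coefficient of variation was 0.198. All adjusted p-values are from this edgeR test unless another is named. The SE of a log2 fold change is its size over the square root of F, and 95% intervals are normal ones from it. CPM are TMM-scaled. Gene positions and transcript lengths are from GENCODE vM21, joined by symbol. The procedure was tested on simulated counts. Replicate numbers follow deposition order and pair nothing.

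Not every member that enters the counts and sums is reported or drawn by itself. Every called member is named, with values per library for the 6 of smallest adjusted p per class and direction, and always for Lars2 and Wars. In the drug comparisons, members of the other lists are named if called, up to 5 per comparison, and Atf4 always. Of those called with time, synthetases apart, only Aimp1, Qrsl1 and Mtfmt are named. Among 20 amino acid response genes, 7 were called higher and 3 lower with time in BAR, and 2 and 3 in BMF. Among 8 elongation and release factors, 2 were higher in BAR and 2 lower in BMF. Of all genes, 39.1% were called in BAR and 38.5% in BMF. The members and lists were chosen with earlier results of these data known. Alternatives were DESeq2 1.42.0, limma 3.58.1 voom, other scalings and filters, covariates, and leaving out libraries.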

Additional observations from a re-analysis of the deposited data

Results flagged for a closer look

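In 3 of 76 groups of gene values tested (38 genes in the 2 groups of 5 libraries), 1 library lay far from the other 4 by Dixon's criterion. Chance flags about 5% of groups. Mars stood at 97.0 CPM in BMF day 10 replicate 5, where the other BMF day 10 libraries had 72.5 to 78.0 CPM. Wars stood at 112 CPM in the same library, where the others had 80.4 to 88.0 CPM. This library also had the lowest Rn45s share of its group (1.15%), and without it 8 cytosolic and 5 mitochondrial genes were called at day 10 in place of 5 and 1. Aars2 stood at 7.71 CPM in BAR day 10 replicate 1, where the others had 6.68 to 6.96 CPM.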

How the results depend on the processing

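Of 32 called member results, 0 reversed in any setting, and 32 stayed called with DESeq2, 31 with DESeq2 size factors, 31 with limma voom, 30 of 31 with Rn45s and Lars2 left out, 26 with a term for the division of the day 10 libraries, 21 with the Rn45s share as a covariate, 20 with no filter on low counts, 17 with the neutrophil covariate (added after seeing the data) and 16 without the 3 BMF day 10 libraries richest in Rn45s. For BAR against BMF at day 10, the cytosolic count was 5, and 3 with no filter or with the division term, 2 with the neutrophil covariate, and 0 with the Rn45s covariate or without the 3 libraries; the mitochondrial count was 1, and 0 in these last 2 settings. At day 14 the cytosolic count was 6, and 2 with no filter or with the neutrophil covariate; the mitochondrial count was 1, and 4 with DESeq2, 2 with DESeq2 size factors, with the division term or with Rn45s and Lars2 left out, and 0 with no filter or with the neutrophil covariate. Over all genes, 2145 of 14862 were called at day 10, and 1566 with the neutrophil covariate, 2068 with the division term and 1625 of 23475 with no filter. At day 14 they were 3738, and 973 with the neutrophil covariate and 3144 of 23475 with no filter. The cytosolic count for the difference between days was 0, and 1 with the neutrophil covariate, where 897 genes were called in all, against 1535. For day 14 against day 10, the BMF cytosolic count was 7, and 4 with no filter or the neutrophil covariate and 2 without the 3 libraries; the BAR cytosolic count was 2, and 1 in those 3 settings; the BAR mitochondrial count was 3, and 1 with the neutrophil covariate. Over all genes, 5728 were called with time in BMF, and 5474 with the neutrophil covariate, 6717 of 23475 with no filter and 2459 of 14559 without the 3 libraries. In BAR they were 5808, and 1510, 5738 and 5581 in the same settings. The day 10 Lars2 call is not among the 32 results counted above. Its change of -2.25 was -0.86 and -1.31 with the Rn45s covariate and without the 3 libraries, and it passed in neither (adjusted p = 0.202 and 0.103). The difference of the class medians at day 10, cytosolic minus mitochondrial, was -0.01, and 0.03 and 0.02 in these settings. The cause was not tested.

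With 1 library left out, counts ran from 1 to 8 (cytosolic) and 0 to 5 (mitochondrial) at day 10, 2 to 8 and 0 to 4 at day 14, 0 to 1 in both classes for the difference between days, 3 to 8 and 4 to 6 with time in BMF, and 1 to 3 and 3 to 4 with time in BAR. Over all genes, calls ran from 1036 to 3615 at day 10 and from 2119 to 4051 at day 14. They ran from 679 to 2025 for the difference between days, from 4348 to 6260 with time in BMF and from 3842 to 6117 with time in BAR. Lars2 at day 10 ran from -2.49 to -1.93, and the difference of class medians from -0.04 to 0.02. No paired analysis was possible because the labels give no replicate numbers. With 3 libraries per arm at day 14, low members such as Pars2 and Aars2 have wide intervals.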
